A study of Mus musculus with 12 samples.

Results

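Kidney RNA was set against a universal mouse reference RNA at the same input of 10 ng, on 6 of the 12 arrays of the series, taken by their sample titles. The 3 kidney arrays were made from kidney RNA supplied by Ambion, and the 3 reference arrays from a reference RNA whose supplier the labels spell Strategene. Such a reference is a commercial pool of RNA from cultured cell lines. The labels give no strain, sex, age or number of animals for the kidney RNA and do not list the lines in the pool, so each group stands for 1 commercial RNA. All titles carry the code pRS, which the labels do not explain. The series as a whole concerns amplification of small RNA inputs and also holds the same reference RNA at 3 and 0.3 ng. Together with the rest, those arrays set the filter, the pseudocount, the background and the probe set read for each gene. They also gave 1 alternative fit, and the 3 ng arrays are quoted for Fos and Egr1. The labels do not say whether the 3 arrays of a group began from separate extractions or amplifications. The p-values here therefore rest on spread among these arrays, which may be technical and is pooled in part over all tested probe sets.

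A kidney is built mostly of epithelial cells that no longer divide and that reabsorb filtered solutes, with vessels, interstitial cells and nerves between the tubules. Cells kept in culture are in rich medium with serum, a setting known to drive growth signalling, ribosome production and division. Immediate early genes are transcription factor and feedback genes that cells switch on within minutes of a growth or stress stimulus, and nuclear receptors are transcription factors that bind steroids, vitamins, bile acids and fatty acids. Lysosomes break down endocytosed protein, and the vacuolar proton pump acidifies both lysosomes and, in some collecting duct cells, the urine.

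Signals are linear array intensities scaled to a common trimmed mean of 500 on each array. Differences are log2(signal + 3.9) in kidney minus reference with the standard error (SE) of limma's fit, means carry the SD over 3 arrays, and a probe set was called when limma's Benjamini-Hochberg adjusted p was under 0.05. A signal under 33.65 was treated as background, and where all arrays of the dimmer group lay under it the fold is given as "at least". Arrays of 1 RNA correlated at 0.942 to 0.948 across probe sets and arrays of different RNA at 0.794 to 0.798. All 8 kidney genes used to check the label, among them Umod, Slc34a1, Lrp2 and Aqp2, were called higher in kidney. Their summed signal was 41703 to 42801 on the kidney arrays and 186 to 232 on the reference arrays.

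The difference between the organ and the pool of lines reached most of the measured genes. Of 27022 tested probe sets 60.1% were called, 6201 higher (22.9%) and 10045 lower (37.2%) in kidney. Of the 12820 genes with a tested probe set of their own, 3475 were higher (27.1%), 4568 lower (35.6%) and 4777 not called, so 62.7% were called, and 46.4% differed at least 2-fold. The 3 kidney arrays lay wholly above or wholly below the 3 reference arrays for 73.2% of these genes, 31.7% above and 41.5% below. The median difference was −0.19. Centring each array on its median adds 0.24 to every difference, moves that median to 0.06 and turns the split to 4223 higher and 3498 lower, so small differences are relative to the scaling.

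**Figure D1:**
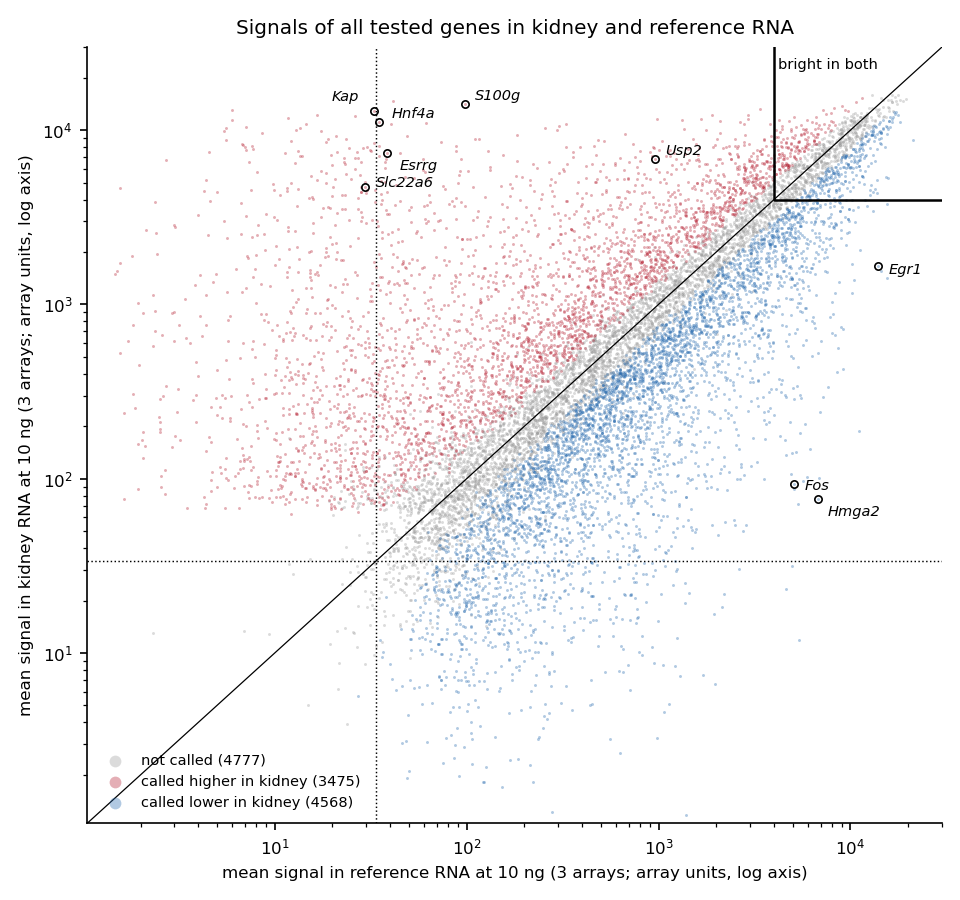
Mean signal of each tested gene in kidney RNA (vertical, log axis) against reference RNA (horizontal, log axis), both at 10 ng and over 3 arrays, in array units. Dotted lines mark the background of 33.65, the diagonal marks equal signal and the corner marks genes at 4000 or more in both; the cloud is wide at low signal and narrows to the diagonal in that corner, which holds 986 genes.

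Reference RNA held a little more of its signal in its brightest probe sets. The 100 brightest probe sets took 4.38, 4.49 and 4.5% of the signal on the kidney arrays and 5.14, 5.78 and 5.09% on the reference arrays. Signals above background were found for 61% ± 0.885 of probe sets in kidney (SD, n = 3) and for 64.3% ± 0.528 in reference RNA. The number of probe sets at 4000 or more was 2305 ± 14.2 in kidney against 2176 ± 16.6. In each of these 3 measures the groups did not overlap, and the two-sided exact permutation test gave p = 0.1, the smallest that 3 against 3 arrays can give.

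Genes bright in both RNAs were described apart, and their choice by level in both groups itself removes large differences. Both group means reached 4000 for 986 genes, a level at which a log2 difference of up to 2.54 could be seen under the highest signal of 23207. Of them 41.3% were called, 149 higher (15.1%) and 258 lower (26.2%), and 579 were not. With a variance trend in the fit 651 were called. The kidney and reference arrays did not overlap for 718 of the 986, beside 73.2% of all tested genes. The median size of the difference was 0.30, against 0.90 over all tested genes, and 34 genes (3.45%) differed at least 2-fold, 11 higher and 23 lower. None differed 4-fold. For 351 genes (35.6%) the whole 95% interval lay within 0.5 of 0, against 6.76% of all tested genes. Replicate spread was also smaller here, with a median SD of log2 values of 0.047 in kidney and 0.091 in reference RNA, against 0.199 and 0.208 over all tested genes. limma's fit draws each variance towards a common value, and the median SE was 0.12 here, against 0.20 over all tested genes.

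Which way bright genes moved as a group depended on the scaling. Centred arrays gave 261 higher and 88 lower, and quantile normalization 168 and 231. Leaving out kidney replicate 2, kidney replicate 3 or reference replicate 1 left 98 called higher in each case. At a level of 2000 the same rule took in 1996 genes, of which 49.5% were called, and at 8000 it took in 284, of which 25% were called.

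On the probe set read for each gene, the largest rises among bright genes ran up to 2.7-fold. Other probe sets gave log2 differences up to 4.05 for 4833439L19Rik, 4.38 for Nceh1 and 3.58 for Pkp4, and as little as 0.10 for Igf1r. The unnamed cDNA gene 4833439L19Rik measured 11089, 11523 and 11550 in kidney and 4244, 4416 and 4012 in reference RNA (log2 difference 1.43, SE 0.12). Slc25a20, which carries acylcarnitines into mitochondria, measured 9676, 10524 and 10015 against 4253, 4447 and 3590 (1.30, SE 0.14). Lgr4, a receptor for R-spondins, measured 10059, 10507 and 9920 against 4786, 3778 and 4575 (1.22, SE 0.14). In all of these the groups were apart, as the choice of the 12 largest rises required. The other genes among the 12 largest rises were Chchd10, a small mitochondrial protein gene (1.26), Nceh1, a cholesterol ester hydrolase gene (1.25), Cryab, a small heat shock protein gene (1.24), H2-K1 of the class I antigens (1.18), the growth factor receptor gene Igf1r (1.17), Hsdl2 (1.13), the mitochondrial superoxide dismutase gene Sod2 (1.05), the junctional protein gene Pkp4 (1.02) and Tmem176b (2-fold). Their adjusted p-values lay between 0.000238 and 0.00229.

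The largest fall among bright genes was that of Ncam1, a neural and embryonic cell adhesion molecule, which measured 4123, 4492 and 4536 in kidney and 13568, 14046 and 13466 in reference RNA (−1.64, SE 0.12, adjusted p = 0.000152). Rrm2, a subunit of ribonucleotide reductase, followed with 4274, 3798 and 5250 against 12856, 13252 and 13161 (−1.57, SE 0.16). Lgals1, a galectin, was among the brightest of all in reference RNA, at 19960, 23207 and 20633 against 8659, 8817 and 8859 (−1.27, SE 0.12). No kidney array reached the lowest reference array in any of these, which was a condition of their choice. Other probe sets fell further for Ncam1 (to −3.72), Rrm2 (to −4.14) and Lgals1 (to −2.11). S100a6 (−1.56), the RNA-binding protein gene Celf2 (−1.55), the gap junction gene Gja1 (−1.52), the actin-binding Tmsb10 (−1.48), the ribosomal Rpsa (−1.40), the nucleolar Npm1 (−1.39), the membrane glycoprotein gene Pdpn (−1.25) and 2410006H16Rik (−1.57) were also among the 12 largest falls.

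**Figure D2:**
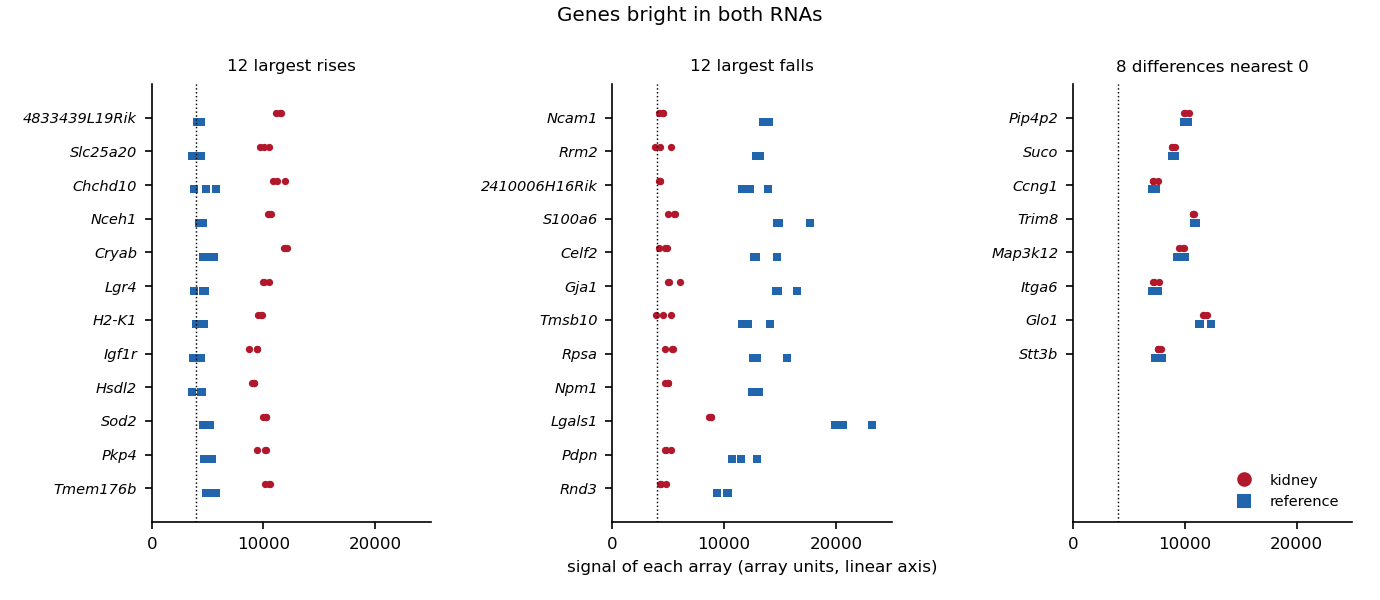
Signal of each array (linear axis, array units) for genes at 4000 or more in both RNAs: the 12 largest rises, the 12 largest falls and the 8 genes whose 95% interval lay closest around 0, with circles for the 3 kidney arrays, squares for the 3 reference arrays and a dotted line at 4000. The groups are apart in the first and second panels, where non-overlap was a condition of choice and the differences reach 1.43 and −1.64. In the third they lie close together and overlap, except in Trim8.

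Some bright genes measured nearly the same in the organ and in the pool. Trim8, an E3 ubiquitin ligase gene, measured 10687, 10813 and 10737 in kidney and 10825, 10872 and 10960 in reference RNA, a difference of −0.02 with a 95% interval of −0.29 to 0.25. Ccng1, a cyclin gene that p53 is known to induce, measured 7155, 7116 and 7595 against 7096, 7448 and 7236 (interval −0.27 to 0.29). Pip4p2, Suco, Map3k12, Itga6, Glo1 and Stt3b, the last a catalytic subunit of N-glycosylation, also lay within 0.02 of 0, and the bounds of all 8 intervals stayed within 0.30. These 8 were the genes with the tightest bounds, so they describe the closest pairs and not a typical bright gene. In Suco, Map3k12, Itga6 and Stt3b another probe set was called, with differences from −0.66 to 0.96. Of 768 bright genes with at least 2 tested probe sets, 40 had probe sets called in opposite directions. In the lists that follow, 20 brightest members were not called, and 15 of the 16 with several tested probe sets had another that was called, so an uncalled brightest member describes that probe set alone. Among 202 genes that the naming rule took as a called rise or fall, 90 had several tested probe sets, of which 18 had one without the same call, 3 of them in the opposite direction.

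The largest bright family was that of the ribosomal proteins. All 35 bright ribosomal protein genes by symbol, Rpsa included, lay below 0 (−0.28 to −1.40) and 30 were called lower, against 26.2% of bright genes called lower. With centred arrays 10 of the 35 were called lower, and with quantile normalization 19, with 0 higher under either. Among genes of respiratory complex I, 4 of 7 bright Ndufb genes were called higher (median 0.45) and 2 of 7 Ndufa genes (0.16), against 15.1% of bright genes. With centred arrays 6 Ndufb and 3 Ndufa genes were called higher, beside 261 of all 986 bright genes. None of 8 bright Rab GTPase genes and none of 5 bright Psmb genes of the proteasome core was called in limma's fit. With centred arrays 4 of those 8 Rab genes were called higher.

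Most immediate early genes were lower in kidney. Of 33 listed genes, all tested, 26 were called lower and 1 higher, against 35.6% and 27.1% of all tested genes, and their median difference was −1.74 against −0.19. With centred arrays 23 were lower and 1 higher. Fos, a subunit of the AP-1 transcription factor, measured 112, 68.6 and 99.1 in kidney and 5051, 5947 and 4319 in reference RNA (−5.73, SE 0.23, adjusted p = 2.67e-05). Its paralogue Fosl1 was at least 24.3-fold lower and Fosb at least 7.79-fold lower. Every kidney array of these genes lay below every reference array.

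The size of the difference varied widely within this class. Egr1, a zinc finger factor induced by serum, measured 1772, 1754 and 1474 against 13422, 15135 and 13390 (−3.07, SE 0.14). Myc, a driver of growth, measured 61, 112 and 130 against 1344, 1623 and 1301 (−3.82, SE 0.30). Jun, in contrast, stayed bright in both, at 6798, 6517 and 6868 against 11257, 10994 and 11290 (−0.73, SE 0.11). Egr1, Myc and Jun were named after their values were seen. Klf2, a factor known from endothelium exposed to flow, was the 1 member higher in kidney, with 286, 257 and 272 against 122, 162 and 117 (1.02, SE 0.17). Btg1, an inhibitor of proliferation and the brightest member, measured 10718 ± 166 against 12330 ± 559 and was not called. The same reference RNA at 3 ng measured 4716 ± 891 for Fos and 13419 ± 849 for Egr1 (n = 3).

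**Figure D3:**
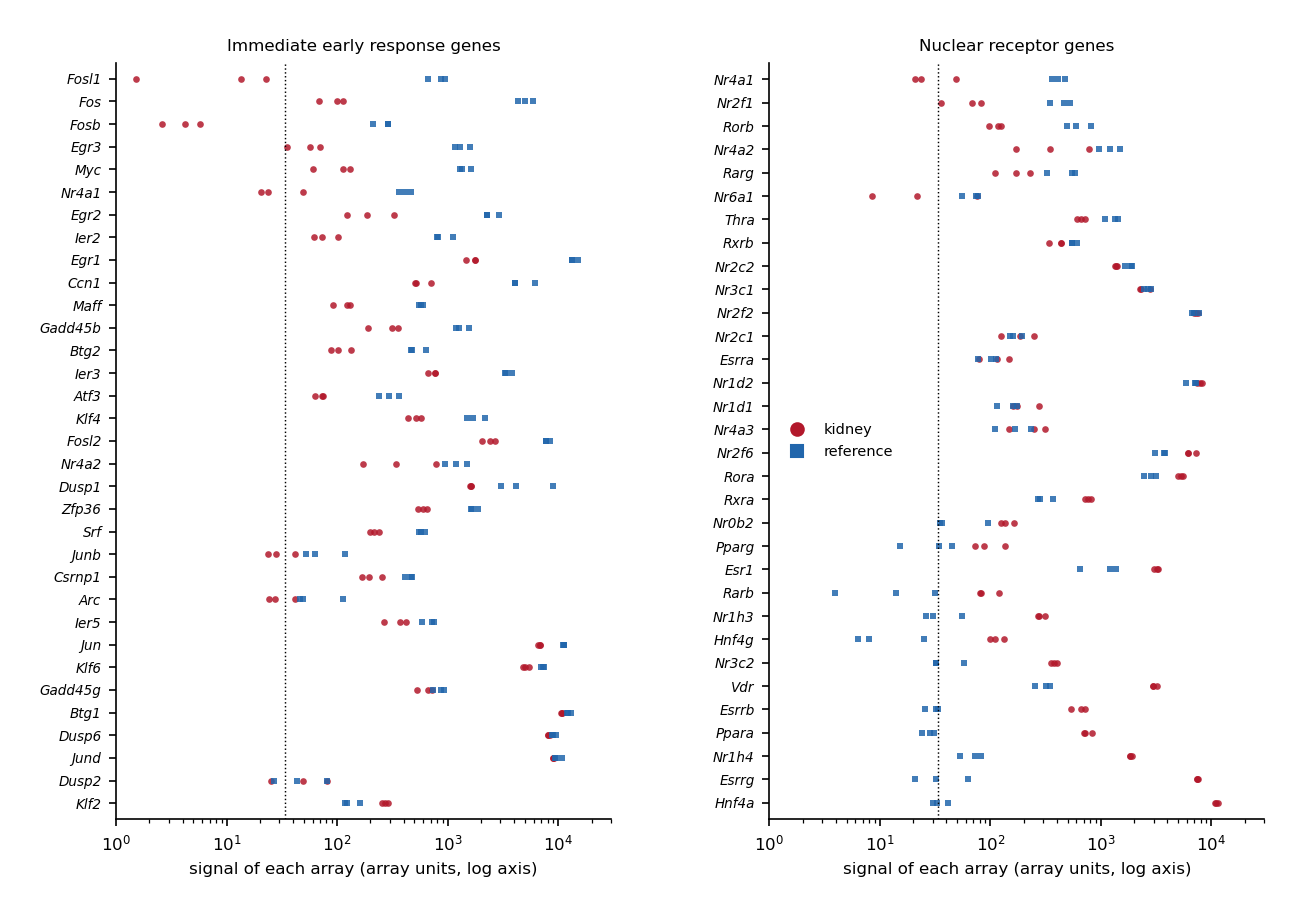
Signal of each array (log axis, array units) for the tested immediate early genes and nuclear receptor genes, with circles for 3 kidney and squares for 3 reference arrays, sorted by difference, and a dotted line at the background of 33.65. In the immediate early panel 26 of 33 genes were called lower in kidney, and in the nuclear receptor panel 16 of 32 were called higher, from Hnf4a with a difference of 8.17 downward.

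Nuclear receptors went both ways, with the larger differences on the kidney side. Of 46 listed receptors 44 had a probe set of their own and 32 were tested. Of these 16 were higher (50%, against 27.1% of all tested genes), 8 lower (25%, against 35.6%) and 8 not called. The median was 0.67, and centred arrays gave 17 higher and 5 lower. Hnf4a, a regulator of epithelial metabolic genes, measured 10738, 11031 and 11578 in kidney and 33.1, 30.4 and 41 in reference RNA (8.17, SE 0.15). Esrrg, an orphan receptor tied to mitochondrial genes, measured 7382, 7480 and 7366 against 62.3, 32 and 20.7 (7.58, SE 0.36), and the bile acid receptor gene Nr1h4 1904, 1832 and 1851 against 82.8, 52.9 and 71.9 (4.70, SE 0.19). Every kidney array of these 3 genes lay far above every reference array.

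The receptors lower in kidney were led by Nr4a1, which is also an immediate early gene (−3.31 with background as the floor), by Nr2f1 (−2.83) and by Rorb (−2.42). Paralogues differed. Nr2f1 measured 67.7, 35.7 and 82.2 in kidney against 465, 347 and 526, whereas Nr2f2 measured 7541, 6976 and 7207 against 7011, 7712 and 6676, a difference of 0.02 (SE 0.12). The glucocorticoid receptor gene Nr3c1 measured 2449 ± 303 against 2675 ± 191 and was not called, while the mineralocorticoid receptor gene Nr3c2 was higher, at 377 ± 25.6 against 40.7 ± 14.8. Nr2f2, Nr3c1 and Nr3c2 were named after their values were seen. Without kidney replicate 2, reference replicate 1 or reference replicate 3, 5 receptors were called lower in place of 8.

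Genes known to respond to glucocorticoids were split. Of 17 tested, 8 were higher (47.1%, against 27.1% of all tested genes), 4 lower (23.5%, against 35.6%) and 5 not called. The median was 0.08. Klf15, a regulator of amino acid and fat metabolism, was at least 8.55-fold higher, with 233, 296 and 333 in kidney. Zbtb16 measured 1538, 826 and 1322 against 157, 75.9 and 195 (3.12, SE 0.41), and Pdk4, which restrains pyruvate oxidation, 10624, 11277 and 10704 against 2903, 3604 and 1908 (4-fold, SE of the log2 difference 0.25). The 4 lower genes were Ddit4 (−1.58), Dusp1 (−1.58) and the metallothionein genes Mt2 (−1.23) and Mt1. Errfi1, a feedback inhibitor of the EGF receptor and the brightest of the list, measured 15315 ± 245 against 14474 ± 1026 and was not called.

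Clock genes showed no common direction. Of 20 tested, 6 were higher (30%, against 27.1% of all tested genes), 5 lower (25%, against 35.6%) and 9 not called. The median of 0.06 changed sign in 3 of the alternatives. The output genes Usp2 and Hlf were higher: Usp2, a deubiquitinase gene, measured 6757, 6755 and 6960 in kidney against 1076, 780 and 1003 (2.85, SE 0.16), and Hlf 541, 532 and 620 against 64.9, 89.1 and 63.7 (2.91, SE 0.18). Npas2, a paralogue of Clock, was higher as well (3.38 with background as the floor). The repressor genes Ciart (−2.22) and Nfil3 (−1.44) and the kinase gene Csnk1e (−1.92 with background as the floor) were lower. Nr1d2, the brightest clock gene, measured 7814, 8160 and 7438 against 7255, 5903 and 7168, a difference of 0.21 (SE 0.14) that was not called.

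Lysosomal and proton pump genes were more often higher than lower in kidney. Of 54 lysosomal genes 48 had a probe set of their own and 46 were tested, of which 22 were higher (27.1% of all tested genes were), 7 lower and 17 not called, with a median of 0.37. Ctsh, a cysteine protease gene, measured 4688, 4748 and 4413 in kidney and 53.3, 76.8 and 103 in reference RNA (5.87, SE 0.24). Acp5, an acid phosphatase gene, measured 704, 643 and 574 against 21.6, 44.8 and 60.9 (3.89, SE 0.36). Ctsf, the third largest rise, is given with the promoters. Lgmn, an asparagine endopeptidase gene, and Fuca1, a fucosidase gene, were higher by 2.12 and 2.13, and were named after their values were seen. On the other side Gusb, the beta-glucuronidase gene, measured 266, 257 and 289 against 1162, 1110 and 1418 (−2.16, SE 0.15), with −0.11 on its second probe set, and Gla, the alpha-galactosidase gene, 131, 132 and 143 against 560, 461 and 460 (−1.83, SE 0.14).

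The lysosomal membrane was represented by Lamp1, the brightest member, at 12329, 12370 and 12819 in kidney and 11595, 13429 and 11648 in reference RNA. The groups overlapped, and the difference of 0.04 (SE 0.12) was not called. Of 22 proton pump genes 19 were tested: 12 were higher (63.2%, against 27.1% of all tested genes), 1 lower and 6 not called. Their median was 0.58. Atp6v1b1, the B subunit form of collecting duct cells, measured 351, 435 and 324 in kidney, at least 11-fold above reference RNA, and Atp6v1c2 was at least 2.58-fold higher. Atp6v0e2 measured 678, 591 and 580 against 93.3, 149 and 156 (2.21, SE 0.23). Atp6v1g1, the brightest, measured 10839 ± 273 against 10357 ± 453 and was not called. The single gene called lower, Atp6v1b2 (−1.56), was called higher on 3 of its 4 probe sets, and the mean over its probe sets gave 1.02.

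**Figure D4:**
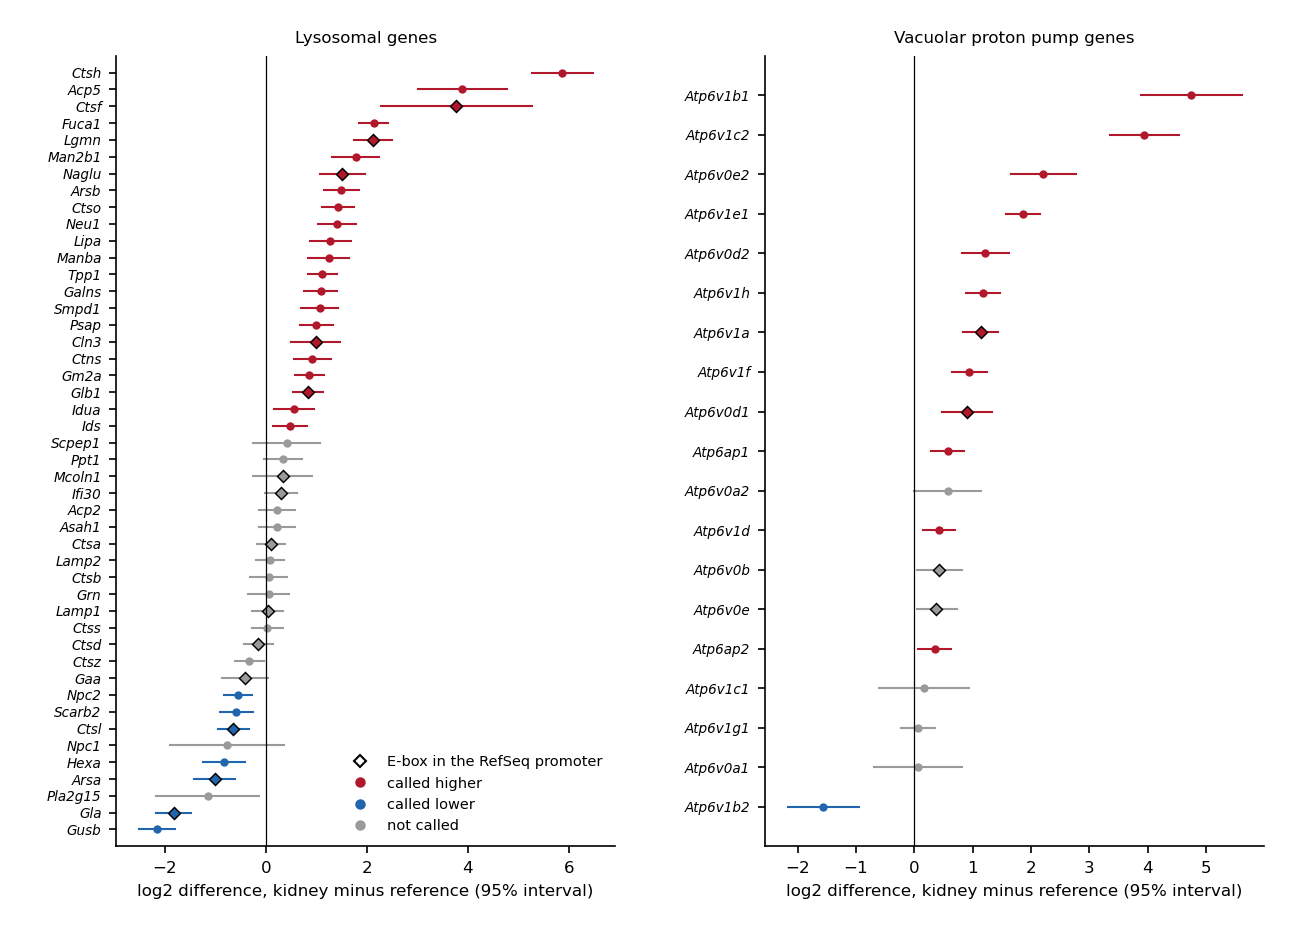
Log2 difference, kidney minus reference, with its 95% interval for the tested lysosomal genes and vacuolar proton pump genes, coloured by call, with a diamond where the RefSeq promoter holds the E-box. Genes with and without the E-box are found at both ends: among those with it, Ctsf lies near the top of the lysosomal panel, Lamp1 near 0 and Gla next to the bottom.

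Many lysosomal promoters are known to carry an E-box of the kind bound by TFEB and related factors, so promoters were searched for CACGTG, which reads the same on both strands. RefSeq promoters of build GRCm38.p6 were read from 250 bases before to 50 after the start, and a gene counted when any of its promoters held the motif. It was in 15 of 43 lysosomal genes with a promoter entry (34.9%) and 4 of 16 proton pump genes (25%), against 8.09% of 27025 genes. The longer form with GT before it and AC after it was in 1 lysosomal gene, Cln3, and in 0.37% of all genes. In the clock list 5 of 18 genes held CACGTG (27.8%), and 1 held TTANGTAA, against 2.72% of all genes. The promoters of a gene that did not differ, one higher in kidney and one lower are shown 5′ to 3′ on the gene's strand, with CACGTG in capitals. They are those of Lamp1 (chr8:13158911-13159210, plus strand), Ctsf (chr19:4854915-4855214, plus strand) and Arsa (chr15:89477375-89477674, minus strand).
Lamp1: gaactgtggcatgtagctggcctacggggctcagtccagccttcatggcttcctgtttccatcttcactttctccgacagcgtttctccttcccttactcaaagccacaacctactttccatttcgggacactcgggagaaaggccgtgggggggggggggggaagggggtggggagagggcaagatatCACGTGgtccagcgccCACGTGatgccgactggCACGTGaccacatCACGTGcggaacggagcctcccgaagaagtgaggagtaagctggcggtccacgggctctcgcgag
Ctsf: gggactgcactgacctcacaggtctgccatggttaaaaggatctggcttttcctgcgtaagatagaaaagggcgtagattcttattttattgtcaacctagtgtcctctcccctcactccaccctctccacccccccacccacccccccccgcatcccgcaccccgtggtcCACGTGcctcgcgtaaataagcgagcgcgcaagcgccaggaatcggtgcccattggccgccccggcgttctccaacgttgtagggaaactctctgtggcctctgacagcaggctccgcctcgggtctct
Arsa: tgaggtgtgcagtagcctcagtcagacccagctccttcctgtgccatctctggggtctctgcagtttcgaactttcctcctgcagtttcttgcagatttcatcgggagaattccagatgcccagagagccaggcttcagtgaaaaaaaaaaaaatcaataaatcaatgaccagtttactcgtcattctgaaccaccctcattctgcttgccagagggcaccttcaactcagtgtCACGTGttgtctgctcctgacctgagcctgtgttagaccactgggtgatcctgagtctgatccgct
The Lamp1 window held 4 copies, and those of Ctsf and Arsa 1 each. Ctsf, a cysteine protease gene, measured 336, 347 and 279 in kidney against 47.7, 23.2 and 5.6 (2.95 with background as the floor). Arsa, a sulfatase gene, measured 138, 107 and 110 against 231, 221 and 280 (−1.02, SE 0.17). A match of letters is a description and does not show that a factor is bound.

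Autophagy genes were mixed, with 10 of 32 tested higher (31.2%, against 27.1% of all tested genes) and 6 lower (18.8%, against 35.6%). Centred arrays gave 12 and 2. The median was 0.12, or −0.02 with the mean over a gene's probe sets. Gabarapl1, an autophagosome protein gene, measured 6369, 6329 and 6398 in kidney against 1397, 1425 and 1098 (2.29, SE 0.15), and Map1lc3a 3444, 2427 and 5492 against 928, 1577 and 1158 (1.58, SE 0.35). Map1lc3b, its brighter paralogue, measured 5908 ± 103 against 6096 ± 51.9 and was not called, but 2 of its 4 probe sets were called higher. Leaving out any 1 of the 6 arrays left 5 or 6 genes higher and 3 or 4 lower.

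Genes that build ribosomes and move cargo through the nuclear pore were called lower more often than the 35.6% of all tested genes. Of 58 ribosome assembly genes, 44 were lower and 1 higher (median −1.08), and of 45 tested nuclear transport genes 32 were lower and 0 higher (median −0.81). Centred arrays gave 41 and 23 lower, and 2 and 0 higher. Nop56, a core protein of the box C/D snoRNPs, measured 246, 325 and 540 in kidney and 3201, 3433 and 3321 in reference RNA (−3.23, SE 0.29). Its partner Nop58 measured 265, 234 and 144 against 1437, 1069 and 1363 (−2.60, SE 0.27), and Utp23 34.5, 60.4 and 92.8 against 280, 539 and 382 (−2.65, SE 0.41). No kidney array of these genes reached the reference arrays. Rpf2, the brightest of the list, measured 11384 ± 379 against 13476 ± 725 and was not called.

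In nuclear transport the pore component gene Nup85 measured 496, 516 and 602 against 4026, 3772 and 4034 (−2.87, SE 0.13). Ranbp1, a regulator of the Ran GTPase, measured 261, 315 and 349 against 2125, 2344 and 2129 (−2.83, SE 0.15), and Kpna2, an importin alpha, 382, 331 and 322 against 2433, 2354 and 2559 (−2.82, SE 0.13). Importins differed among themselves: Ipo8, named after its values were seen, measured 8802 in kidney and 8530 in reference RNA and was not called. Tnpo1, the brightest, measured 9176 ± 76.5 against 10520 ± 402 and was not called.

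Translation factor genes, with the kinases and methyltransferases named after them, had 32 of 60 lower and 4 higher. These are 53.3% lower, against 35.6% of all tested genes, and 6.67% higher, against 27.1%. The median was −0.47, and centred arrays gave 19 lower and 6 higher. Leaving out kidney replicate 1, kidney replicate 3, reference replicate 1 or reference replicate 3 left at most 1 called higher. Eif4ebp1, a repressor of cap-dependent translation that mTOR inactivates, measured 895, 634 and 494 against 3624, 3229 and 3682 (−2.41, SE 0.24). Eif2ak4, the kinase that senses amino acid shortage, measured 120, 107 and 97.6 against 484, 536 and 534 (−2.22, SE 0.14), and the initiation factor gene Eif3d 515, 560 and 517 against 1921, 2086 and 1693 (−1.83, SE 0.14). The groups were apart in all of these.

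Secretory pathway genes differed little as a group. Over all tested genes 35.6% were lower and 27.1% higher. Of 39 coat and translocon genes 10 were lower (25.6%) and 3 higher (7.69%), with a median of −0.16. Of 31 endoplasmic reticulum folding and stress genes 10 were lower (32.3%) and 5 higher (16.1%), with a median of −0.14. With centred arrays these counts were 5 and 4 and 7 and 7, and the medians 0.09 and 0.11. Single genes differed strongly. Kdelr3, a receptor that returns proteins to the endoplasmic reticulum, measured 44, 28.3 and 39.6 in kidney against 1058, 1244 and 986 (−4.75, SE 0.20), while its paralogue Kdelr2 measured 11933 ± 218 against 14832 ± 1167 and was not called. Mcfd2, a cargo receptor gene, measured 3204, 2586 and 3203 against 1210, 1371 and 1197 (1.24, SE 0.15).

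Within the stress response, single genes went opposite ways. Asns, the asparagine synthetase gene that ATF4 induces, measured 388, 175 and 304 in kidney against 5172, 6015 and 5419 (−4.31, SE 0.30). Trib3, another such target, was lower by 3.35 (SE 0.36), and Ero1a, an oxidase of protein folding, fell by 3.33 (SE 0.54). Herpud1, which takes part in degradation from the endoplasmic reticulum, measured 3113, 3121 and 2904 against 1006, 1148 and 978 (1.54, SE 0.13), and the chaperone genes Dnajb9 (1.25) and Dnajc3 (0.69) were higher too. The lectin chaperone gene Canx, the brightest, measured 11753, 12079 and 11750 against 11645, 12463 and 12146 and was not called (−0.03, SE 0.11).

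Chromatin regulators were mostly lower in kidney, with 33 of 58 tested lower (56.9%, against 35.6% of all tested genes) and 4 higher (6.9%, against 27.1%). The median was −0.68, and centred arrays gave 26 lower and 7 higher. Hmga2, an architectural protein gene of embryonic and transformed cells, measured 52.1, 120 and 55.9 in kidney and 6724, 6413 and 7097 in reference RNA (−6.50, SE 0.33). Hells, a chromatin remodeller gene linked to DNA methylation, measured 55.3, 176 and 70.5 against 2876, 2783 and 2338 (−4.85, SE 0.43), and Ezh2, the Polycomb methyltransferase gene, 122, 109 and 84.2 against 1544, 1682 and 1568 (−3.90, SE 0.17). Even the highest kidney array of each lay far below the lowest reference array. Sirt3, a mitochondrial deacetylase gene kept in the list with the other sirtuins, was higher (2.50, SE 0.25), as were Hdac11 (1.13) and Hdac6 (0.76).

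Zinc finger genes named Zfp formed the largest list. Of 329 with a probe set of their own 257 were tested, of which 31 were higher, 90 lower and 136 not called (median −0.43). The 35% called lower is close to the 35.6% of all tested genes, and the 12.1% called higher is under their 27.1%. Centred arrays gave 50 higher and 67 lower, and quantile normalization 47 and 77. Zfp57, which maintains methylation at imprinted loci, measured 6.6, 4.1 and 2.8 in kidney and 274, 271 and 260 in the pool, which made it at least 7.98-fold lower. Zfp365 was lower by 3.86 with background as the floor, and Zfp9 at least 5.13-fold lower. Zfp2 measured 3014, 2609 and 3151 against 388, 343 and 568 (2.77, SE 0.22), Zfp503 was higher by 2.63 and Zfp810 by 2.21. Zfp106, the brightest, measured 8264 ± 227 against 8841 ± 330 and was not called.

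**Figure D5:**
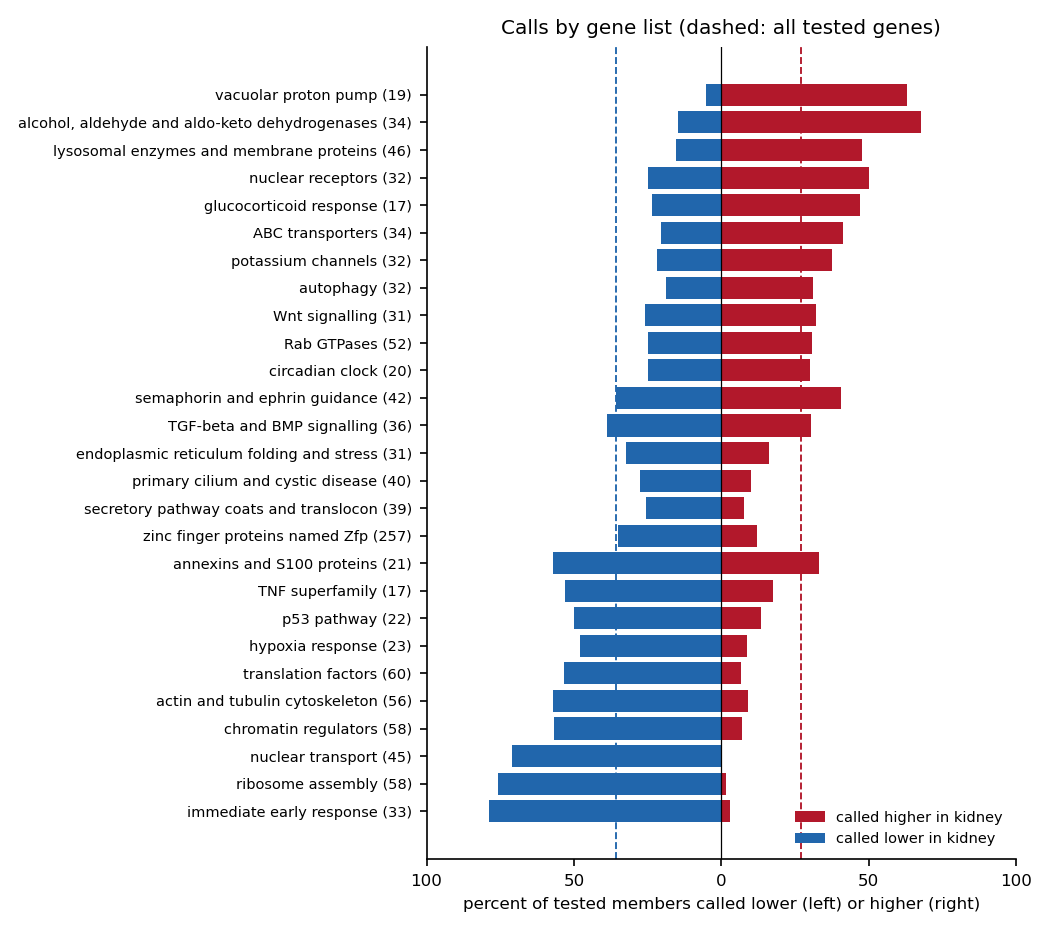
Percent of tested members called lower (left) or higher (right) in kidney for 27 gene families, with the number tested in parentheses; dashed lines give the same for all tested genes, 35.6% lower and 27.1% higher. Immediate early, ribosome assembly and nuclear transport genes reach 71.1 to 78.8% lower, and the proton pump and the alcohol, aldehyde and aldo-keto dehydrogenases 63.2 and 67.6% higher.

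Of 23 tested hypoxia genes 11 were lower (47.8%, against 35.6% of all tested genes) and 2 higher (median −0.41), or 9 and 3 with centred arrays (median −0.17), and of 22 tested p53 pathway genes 11 were lower and 3 higher, with a median of −0.59 (8 lower and 4 higher with centred arrays). Hk2, a hexokinase gene, measured 139, 66.2 and 95.6 in kidney against 2306, 2696 and 2688 (−4.68, SE 0.28). P4ha2, a prolyl hydroxylase of collagen, was lower by 3.32 (SE 0.18) and Ankrd37 by 3.14 (SE 0.28). Epas1, which encodes HIF-2 alpha, went the other way at 2681, 2558 and 2846 against 155, 187 and 238 (3.79, SE 0.19), and Ndrg1 was higher by 0.70. In the p53 list Plk2, a polo-like kinase gene, measured 264, 143 and 168 against 2428, 2595 and 2552 (−3.74, SE 0.24), Eda2r was lower by 3.03, and Cdkn2a, the tumour suppressor locus known to rise in cultured cells, was at least 5.16-fold lower. Perp, an adhesion gene of epithelia, was higher, at 5370, 5638 and 5389 against 2104, 2332 and 2172 (1.31, SE 0.12).

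Of 56 tested cytoskeletal genes, 32 were lower (57.1%, against 35.6% of all tested genes), 5 higher and 19 not called, with a median of −0.53 (25 lower and 9 higher with centred arrays). Tubb6, a beta-tubulin, measured 40.6, 76.4 and 146 in kidney and 2210, 2214 and 1637 in reference RNA (−4.62, SE 0.45), while its second probe set gave −0.35 and was not called, and the myosin light chain gene Myl6 208, 276 and 228 against 1255, 1404 and 1074 (−2.37, SE 0.17). Vil1, the actin bundler of brush border microvilli, measured 2426, 2139 and 2139 against 40.9, 5.5 and 13.2 (5.81 with background as the floor). Ezr, which links actin to the membrane, measured 1731, 1635 and 1651 against 680, 736 and 707 (1.24, SE 0.11), and Tuba4a was higher by 0.91. Actb, the brightest, measured 13923, 15002 and 14362 against 15633, 17145 and 16541 and was not called (−0.19, SE 0.12), while its second probe set was lower by 1.11.

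Beside these, 5 of 11 tested smooth muscle and pericyte markers were higher (45.5%, against 27.1% of all tested genes) and 4 lower (36.4%, against 35.6%). Centred arrays gave 6 and 3. Rgs5 measured 6785, 6688 and 6889 in kidney against 70.3, 70.5 and 37.7, and Acta2 2104, 1874 and 1836 against 6641, 6546 and 7189. The summed signal of the list was 11502 to 11776 in kidney and 10180 to 10806 in reference RNA, and its part in the cytoskeletal counts was not tested. In a mixture of cells, fewer cells of a type and less RNA per cell cannot be told apart.

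Annexins and S100 proteins, which bind calcium, held large differences both ways, with a median of −0.59. Of 21 tested, 12 were lower (57.1%, against 35.6% of all tested genes) and 7 higher (33.3%, against 27.1%). S100g, a vitamin D dependent calcium buffer, measured 13663, 14238 and 14330 in kidney against 79.7, 111 and 104 (7.12, SE 0.16), and S100a9, a neutrophil protein, 3055, 3016 and 2945 and at least 89.3-fold higher. Anxa1 measured 622, 634 and 598 against 6685, 8260 and 6188 (−3.49, SE 0.15). S100a4 (−3.21, SE 0.14) and Anxa2 (−2.69, SE 0.12) were lower too, and were named after their values were seen. S100a6 was the brightest of the family and is given with the bright genes. The arrays of both RNAs did not overlap for any of these.

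Among Rab GTPases, which direct vesicle traffic, 16 of 52 tested were higher and 13 lower (22 and 8 with centred arrays), with a median of 0.10. The 30.8% called higher is near the 27.1% of all tested genes. Epithelial members were the largest rises: Rab17 measured 1279, 1510 and 1307 in kidney against 46.3, 32.5 and 39.3 (4.99, SE 0.17), and Rab25 was at least 10.2-fold higher. Rab7b measured 72.5, 144 and 174 against 1576, 2348 and 1801 (−3.90, SE 0.35), and Rab31 942, 888 and 770 against 3568, 3866 and 3233 (−2.03, SE 0.14). Rab1a, the brightest and a factor of traffic from the endoplasmic reticulum, measured 10492, 10602 and 11385 against 10524, 11685 and 11018, with overlapping groups (−0.03, SE 0.12).

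Cilium genes were mostly not called. Of 40 tested, 25 were not, 11 were lower (27.5%, against 35.6% of all tested genes) and 4 higher (10%, against 27.1%). The median was −0.30, and centred arrays gave 9 lower and 6 higher. Without kidney replicate 1 or reference replicate 2, 1 was called higher, and without kidney replicate 2, 2 were. Pkhd1, the fibrocystin gene of recessive polycystic disease, measured 1782, 1738 and 1279 in kidney, at least 47.5-fold above reference RNA. Kif3a, a motor of transport into cilia, measured 169, 172 and 181 against 542, 514 and 539 (−1.59, SE 0.11), and the Bardet-Biedl genes Bbs12 (−1.49) and Bbs5 (−1.43) were lower.

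Among the 27 gene families, alcohol, aldehyde and aldo-keto dehydrogenases were most often higher in kidney. Of 34 tested, 23 were higher (67.6%, against 27.1% of all tested genes) and 5 lower (14.7%, against 35.6%). The median was 1.61, or 1.52 with background as the floor. Akr1d1, a steroid reductase gene, measured 4533, 4452 and 4194 and was at least 131-fold higher. Akr1c21, a hydroxysteroid dehydrogenase gene, measured 10648, 11293 and 10496 against 47.8, 51.5 and 21.2 (8.02, SE 0.32), and Aldh8a1 was higher by 7.54 with background as the floor. The members lower in kidney included biosynthetic enzymes: Aldh18a1, the first step of proline synthesis, measured 24.8, 21.7 and 69.8 against 1175, 905 and 1275 (−4.56 with background as the floor), and Aldh1l2, of mitochondrial folate metabolism, 108, 72.8 and 77.9 against 1029, 1109 and 1041 (−3.58, SE 0.18). Adh7, a form of the upper digestive tract, was at least 15.6-fold lower.

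Potassium channel and ABC transporter genes were often too dim to test. Of 80 potassium channel genes 32 were tested, of which 12 were higher (37.5%) and 7 lower (21.9%). Of 45 ABC transporter genes 34 were tested, of which 14 were higher (41.2%) and 7 lower (20.6%). Over all tested genes 27.1% were higher and 35.6% lower. Kcnj15 measured 4827, 4998 and 4823 in kidney, at least 145-fold above reference RNA, and Kcnj10, a basolateral channel of distal tubule cells, measured 491, 1336 and 475 and was at least 22.8-fold higher. Kcna4, a voltage-gated channel gene, was at least 16.7-fold lower, and Kcnn4, a calcium-activated one, measured 88.4, 69.9 and 161 against 628, 739 and 721 (−2.75, SE 0.31). Among ABC transporters Abca13 was at least 106-fold and Abcc2, an export pump of the apical membrane, at least 19.9-fold higher. Abcc1, its paralogue, measured 538, 400 and 450 against 1477, 1771 and 1740 (−1.84, SE 0.16).

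Signalling families held large single differences in both directions. In Wnt signalling 10 of 31 tested genes were higher (32.3%, against 27.1%) and 8 lower (25.8%, against 35.6%), not far from the shares of all tested genes, and the median was −0.39. The secreted inhibitor gene Sfrp1 measured 3062, 2973 and 3533 in kidney against 123, 100 and 114 (4.78, SE 0.14), the receptor gene Fzd2 428, 293 and 359 against 3193, 3368 and 2785 (−3.11, SE 0.18), and the transcription factor gene Lef1 778, 591 and 680 against 4753, 5469 and 5283 (−2.92, SE 0.15). The groups were apart in each. Ctnnb1, the beta-catenin gene and the brightest, measured 9388, 9757 and 11255 against 10634, 11010 and 10804, with overlapping groups.

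In TGF-beta and BMP signalling 11 of 36 were higher (30.6%, against 27.1% of all tested genes) and 14 lower (38.9%, against 35.6%). Both shares are near those of all tested genes, and the median was −0.07 (0.17 with centred arrays). Of the ligands, Bmp6 measured 554, 546 and 592 against 59.1, 38.2 and 6.8 (3.61 with background as the floor), and Tgfb2 251, 202 and 453 against 4533, 4672 and 4492 (−3.99, SE 0.31). The BMP receptor gene Bmpr1b was at least 15.9-fold higher, the BMP antagonist gene Grem1 was lower by 3.70 (SE 0.25), and Id4, a target of BMP signals, was higher by 5.55 (SE 0.32). Smad1, the brightest, measured 8056 ± 36.3 against 8790 ± 776 and was not called.

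Of semaphorin and ephrin guidance genes 17 of 42 were higher (40.5%, against 27.1% of all tested genes) and 15 lower (35.7%, against 35.6%). The median was 0.37. Sema3a, a secreted repellent, measured 16.6, 36.4 and 37.5 in kidney against 1328, 1371 and 1063 (−4.98 with background as the floor), whereas the related Sema3g was higher by 3.70 with the same floor, and Sema4a measured 1523, 1202 and 1640 against 133, 104 and 108 (3.62, SE 0.18). In the TNF superfamily 10 of 27 genes were too dim to test. Of the other 17, 3 were higher (17.6%, against 27.1% of all tested genes) and 9 lower (52.9%, against 35.6%). The death ligand gene Tnfsf10 measured 6948, 7158 and 6949 against 345, 388 and 340 (4.28, SE 0.12), and the death receptor gene Tnfrsf21 was higher by 3.43 (SE 0.18). Tnfrsf9, a costimulatory receptor gene, measured 69.5, 34.1 and 58.6 against 1715, 1941 and 2027 (−5.08, SE 0.27), and its ligand gene Tnfsf9 was at least 8.51-fold lower.

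A count by symbol alone, over 111 families with at least 12 tested genes, added families outside the lists. Some of the families named here, such as Akr, Aldh, Nup and Tnfrsf, overlap the lists above. Over all tested genes 27.1% were higher and 35.6% lower, and the median with background as the floor was −0.18. The highest medians with background as the floor were those of Slc22 organic ion transporters (4.20, with 17 of 19 higher), Car (3.39), Akr (2.77), Cyp (2.46), Hsd (2.09), Cldn (1.99), Slc6 (1.37) and Aldh (1.29). Of the hydroxysteroid dehydrogenases named Hsd, 11 of 14 were higher and 0 lower. The glucocorticoid-inactivating Hsd11b2 measured 2400 ± 167 in kidney against 27.3 ± 19.3, and Hsd3b2 was at least 122-fold higher. Among the neurotransmitter and amino acid transporters of Slc6, 9 of 13 were higher and 2 lower. Slc6a20b was at least 153-fold higher, and Slc6a2, the noradrenaline transporter gene, was lower (−3.57 with background as the floor).

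The lowest medians with background as the floor were those of Nup (−1.63), Kif (−1.59), Mmp (−1.57), Snhg (−1.45), Tnfrsf (−1.27), Rad (−1.24) and Col (−1.10), while Tex, lowest without the floor at −2.25, stood at −0.65. Over all tested genes 35.6% were lower and 27.1% higher. Snhg genes host small nucleolar RNAs in their introns, and 11 of 14 were lower and 2 higher (10 and 3 with centred arrays). Snhg1 measured 3666 ± 71.5 in kidney against 12164 ± 573 (−1.73), and Snhg5 843 ± 142 against 7817 ± 527 (−3.22). Of the DNA repair genes named Rad, 11 of 15 were lower and 2 higher, among them Rad51ap1 (−4.45 with background as the floor). The genes named from these families were chosen after their values were seen.

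Genes that tell something of the material itself were also measured. Of 8 adipocyte markers 5 were tested and all 5 were higher in kidney, Ucp1 at an adjusted p of 0.0486 by limma: Fabp4 measured 7944, 7675 and 8324 against 418, 317 and 438, and Adipoq was at least 10.3-fold higher. The summed signal of that list was 8356 to 8924 in kidney and 415 to 511 in reference RNA, and its part in other results was not tested. Most of that sum was Fabp4 alone, at 7981 ± 326 in kidney and 391 ± 64.7 in reference RNA. Of 10 nerve and Schwann cell markers with a probe set Stmn2 was lower in kidney, at 78.9 against 1397, and 8 were too dim to test. Of 7 mast cell markers Kit was higher and 6 were too dim. Of 5 tested skin and mammary markers 1 was higher and 2 lower. Both RNAs held Xist (5632 ± 83.1 against 7436 ± 1254) and the Y-linked Eif2s3y (1089 ± 205 against 824 ± 126), and neither was called on these probe sets. The 2 other tested probe sets of Xist were called lower in kidney, by up to 2.73. Of 9 tested sex-linked and androgen-responsive genes 4 were higher (44.4%, against 27.1% of all tested genes) and 2 lower (22.2%, against 35.6%). The androgen-responsive Kap measured 12390, 13040 and 12964 in kidney against 23.3, 38.6 and 36.5, and Cyp7b1 was at least 169-fold higher. The 2 lower were Gusb (−2.16), given with the lysosomal genes, and Uty (−0.72), of which another probe set was called higher. Of 9 germ and Sertoli cell markers 3 were tested, of which 1 was higher, 1 lower and 1 not called. The meiotic gene Sycp3 measured 5895, 4215 and 5679 in kidney and 536, 679 and 222 in reference RNA (3.58, SE 0.44). Inha was at least 1.86-fold lower, and the germ cell genes Prm2, Tnp1, Ddx4 and Dazl were too dim to test.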

How the data were processed

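RNA was measured on 12 one-colour arrays, of which the 6 at 10 ng of kidney and reference RNA were compared. The authors deposited 1 linear intensity per probe set and array, and from the values each array was found scaled to a 2% trimmed mean of 500. For summarisation, background correction, amplification and labelling no method is given in the sources used here. Values were used as deposited, log2 was taken after adding 3.9 (the 10th percentile of positive values), and 64 control probe sets were left out of 45101. Testing required that the largest of 4 group means exceed the 40th percentile (65.4), which kept 27022 probe sets. Background (33.65) was taken as the 95th percentile over 27 Bacillus controls on all 12 arrays, and the number of arrays limits precision.

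Of the probe sets, 34945 named 1 gene, 932 several and 9160 none. A gene (18193, of which 12820 tested) was read from its brightest probe set among those that name no other gene, and 34754 symbols were found by gene ID in RefSeq GRCm38.p6, with 0 changed. limma 3.58.1 in R 4.3.3 (lmFit, eBayes) was fitted to the 6 arrays with no covariate, two-sided, adjusted by Benjamini-Hochberg over 27022 probe sets, and tested on simulated data. Single array measures were compared by exact permutation tests (scipy 1.17.1).

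Lists (35) were described by counts and medians beside all tested genes. Named genes were drawn from the 3 largest called rises, the 3 largest called falls and the brightest member of each list, and not all of these are named. For bright genes they were 12 called rises and 12 called falls whose kidney and reference arrays did not overlap, and the 8 tightest around 0. Exceptions are marked in the text. Members and lists were chosen with earlier results of these data known. Promoters came from RefSeq GRCm38.p6. Alternatives covered scaling, pseudocount, filter, variance model, arrays in the fit, replicate block, each array left out, probe set choice, bright level and promoter window.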

Additional observations from a re-analysis of the deposited data

How the results depend on the processing

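The count of called probe sets kept within 1.5 times of 16246 under every alternative run, from 11991 with all 12 arrays in 1 fit to 17067 with a variance trend. The count of bright genes called (407, of which 149 higher and 258 lower) was less stable: it was 208 (78 and 130) without the filter and 651 (233 and 418) with a variance trend, and centred arrays gave 261 and 88. With any 1 array left out it was 271 to 348, with 98 to 133 higher and 173 to 215 lower. A bright level of 2000 gave 989 (407 and 582), and one of 8000 gave 71 (8 and 63).

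The replicate numbers were not taken to pair the arrays, because deviations of same-numbered arrays correlated at 0.006, 0.008 and −0.000. With the replicate block 14650 probe sets and 237 bright genes (84 and 153) were called.

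The signal difference in the brightest probe sets was −0.881 points for the top 100, −0.198 for the top 20 and −2.35 for the top 500. In the 150 bases nearest the start, CACGTG was in 2 clock genes, TTANGTAA in 0, and CACGTG with GT before and AC after it in 0 lysosomal genes.

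Medians changed sign for secretory (0.09), endoplasmic reticulum (0.11), TGF-beta and BMP (0.17) and all tested genes (0.06) with centred arrays, for germ and Sertoli markers (1.65) with a filter on the mean of the 6 arrays, for autophagy (−0.02) and the clock (−0.12) with the mean over a gene's probe sets, and for the clock without kidney replicate 3 (−0.04) and without reference replicate 1 (−0.02). Under that mean Atp6v1b2 (1.02), Eif4g3 (−0.06), Imp4 (−0.11), Invs (−0.23) and Ulk2 (0.00) turned or lost direction. The cause of these changes was not tested. Over the single lists and named genes, 5316 values under alternatives kept their direction and side of the threshold or stayed near their count, 139 counts or medians moved, 138 calls were lost and 37 gained. Signals near background limit the measured fold of dim genes, and the 3 arrays of a group limit all p-values.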
